A study of Mus musculus with 16 samples.

Results

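Matricellular glycoproteins are secreted proteins of the extracellular matrix that tune how cells attach to it and respond to growth factors, more than they build its scaffold. The 10 genes described here were chosen by name as thrombospondins (Thbs1, Thbs2, Thbs3, Thbs4), periostin (Postn), tenascin-C (Tnc), osteonectin (Sparc), the related Smoc1 and Smoc2, and fibronectin (Fn1). All 10 were found, each as a single row, among the 23235 rows of the expression table. RNA was sequenced from mouse skin at embryonic day 14.5, when hair follicles begin to form, after cell sorting into 8 fractions with 2 libraries each. The labels name the fractions DC, DCSch, Pc, Epi, Mc, Sch, Neg and Fb, which general knowledge of the study reads as dermal condensate, dermal condensate with Schwann cells, placode, epidermis, melanocyte, Schwann cell, the negative fraction and fibroblast. Neither genotype, strain and treatment nor the sorting markers could be read from the labels, and it is not said whether the replicates came from separate embryos or litters. The p-values below therefore measure only the spread between these libraries, which may be technical.

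Fibronectin is assembled by cells into fibrils and is usually counted as a structural glycoprotein, but it is the substrate against which several of the other proteins act. Tenascin-C weakens cell attachment to fibronectin and is known from mesenchyme that condenses next to epithelium. Periostin binds collagen and fibronectin and takes part in collagen crosslinking. Sparc binds collagen as it is laid down, and Smoc1 and Smoc2 are calcium-binding relatives of Sparc that modulate BMP signalling. The thrombospondins fall into a trimeric subgroup, Thbs1 and Thbs2, known as inhibitors of blood vessel growth that act through the receptors Cd36 and Cd47, and a pentameric subgroup that holds Thbs3 and Thbs4.

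The values are FPKM, a count of fragments scaled by transcript length and library size, so levels can be compared between genes on a per-length scale. Means are given ± SD (n = 2 libraries per fraction throughout). Summed over all genes, libraries held between 439201 and 606437 FPKM. Sequencing depth is not stated and no counts were used, so no counting interval is given. The labelled cell types were checked against marker genes. Keratinocyte markers summed to 3068 to 4326 FPKM in Pc and 2769 to 3564 in Epi, against 569 or less in every other library. Fibroblast markers to 6537 to 8132 in Fb, condensate markers to 1275 to 2422 in DC, Schwann cell markers to 1773 to 1991 in Sch and melanocyte markers to 4699 to 6370 in Mc, and each of these 4 sums was highest in the fraction of that name. Neg held the highest sums of endothelial (259 to 351), skeletal muscle (2295 to 2519), mast cell (970 to 1174) and erythroid markers (32118 to 35046).

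Promoter sequences from RefSeq (GRCm38.p6) were at hand for 6 of the 10 genes: Postn, Sparc, Tnc, Thbs2, Thbs3 and Thbs4. The 120 bases before the start are shown for 4 genes with different leading fractions, Postn (highest in Sch), Tnc (highest in DC) and Sparc and Thbs2 (highest in Fb), with matches to TATAA, the core of the TATA box, in capitals. Postn is chr3:54360987-54361106 on the plus strand before the downstream one of its 2 listed starts, Tnc is chr4:64046937-64047056 on the minus strand before the downstream one of its 2 listed starts, Sparc is chr11:55420081-55420200 on the minus strand and Thbs2 is chr17:14694263-14694382 on the minus strand. All are written 5′ to 3′ on the gene's own strand.
Postn: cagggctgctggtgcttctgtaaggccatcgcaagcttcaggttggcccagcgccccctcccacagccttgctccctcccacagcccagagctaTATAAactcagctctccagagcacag
Tnc: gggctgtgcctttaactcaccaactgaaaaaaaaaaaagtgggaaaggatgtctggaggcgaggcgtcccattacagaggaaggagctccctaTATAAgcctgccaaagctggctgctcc
Sparc: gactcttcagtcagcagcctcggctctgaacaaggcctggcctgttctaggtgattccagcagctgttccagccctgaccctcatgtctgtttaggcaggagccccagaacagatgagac
Thbs2: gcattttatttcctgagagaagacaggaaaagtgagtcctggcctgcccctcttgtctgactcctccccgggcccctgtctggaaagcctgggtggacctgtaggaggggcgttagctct

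TATAA began 26 bases before that start of Postn and 27 bases before that start of Tnc, and none was found before the other start of Postn. Before the other start of Tnc, which is the end of its locus, TATAA began 126 bases away, more than the 120 shown. The Tnc start used here lies 79 bases from that locus end, so the match depends on the start chosen. TATAA was not in the shown windows of Sparc and Thbs2. On either strand it occurred in the last 120 bases before the start in 11.8% of the 32851 RefSeq promoter entries. The CCAAT box was searched the same way, as were the GC box, spelled GGGCGG, and the AP-1 motif, spelled TGACTCA. None of them was in these 4 windows. In the same window GGGCGG was present before Thbs3 and Thbs4 and in 26.5% of all entries, and CCAAT was present before Thbs3 and in 21.3%. These matches only describe letters in the windows.

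No fraction was without matricellular RNA, but its amount and its make-up differed widely. The 10 genes together took 0.259% and 0.271% of the FPKM of the DC libraries, 0.316% and 0.352% in DCSch, 0.146% and 0.165% in Pc, 0.107% and 0.111% in Epi, 0.107% and 0.0954% in Mc, 0.682% and 0.699% in Sch, 0.186% and 0.175% in Neg and 0.693% and 0.704% in Fb. Fb and Sch thus stood apart from the other fractions and overlapped each other. Sparc made up the largest part of this sum in every library, from 38.2% in DC replicate 2 to 84.8% in Mc replicate 2. The highest level of a gene lay in Fb for 4 genes (Thbs1, Thbs2, Sparc, Fn1), in DC for 3 (Thbs3, Tnc, Smoc1), in Pc for Smoc2, in Sch for Postn and in Neg for Thbs4. Epi was the lowest fraction for 7 of the 10. In bulk fractions such as these, fewer cells making an RNA and less of it per cell cannot be told apart.

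**Figure D1:**
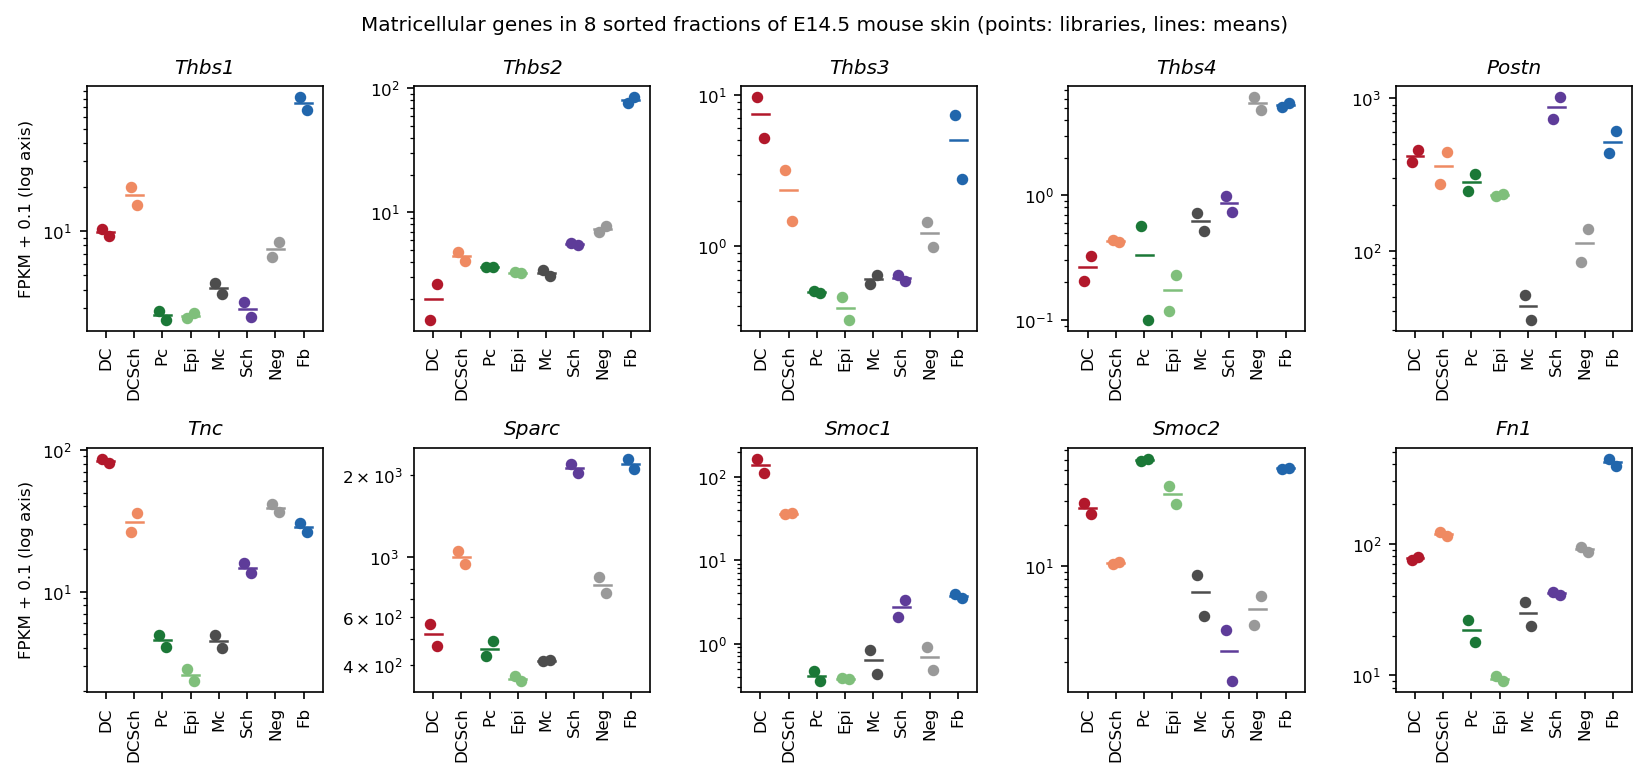
FPKM (with 0.1 added, log axis) of the 10 matricellular genes in the 8 sorted fractions; points are libraries and lines are means of 2. Smoc1 stands at 110.3 and 166 FPKM in DC and at or below 3.83 in the 6 fractions other than DC and DCSch, while Thbs1, Thbs2 and Fn1 stand highest in Fb.

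Fibronectin RNA was a fibroblast feature. Fn1 (chromosome 1, 71585473 to 71653234, minus strand) measured 75.6 and 79.4 FPKM in DC, 122 and 114 in DCSch, 26.1 and 17.6 in Pc, 9.75 and 8.88 in Epi, 35.9 and 23.7 in Mc, 43.1 and 40.4 in Sch, 94.5 and 86.2 in Neg and 442 and 391 in Fb. The Fb libraries were both far above all others, and the mean in Fb was 3.53 times that of DCSch, the next fraction. Only Mc and Pc, low in the order, overlapped among neighbouring fractions. Exons of Apol7d on the opposite strand overlap those of Fn1 by up to 197 bases in the GENCODE M21 annotation, and that gene was listed at no more than 0.820 FPKM in any library.

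Tenascin-C RNA was instead highest in the condensate. Tnc (chromosome 4, 63959785 to 64047015, minus strand) measured 86.8 and 80.6 FPKM in DC, 26.3 and 35.7 in DCSch, 4.86 and 3.998 in Pc, 2.74 and 2.23 in Epi, 4.88 and 3.91 in Mc, 15.8 and 13.4 in Sch, 41.4 and 36.3 in Neg and 30.4 and 26.2 in Fb. DC was 2.16 times the next fraction, Neg. DCSch and Fb overlapped, as did Pc and Mc.

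Periostin RNA was abundant in nearly every fraction. Postn (chromosome 3, 54361107 to 54391041, plus strand) measured 377 and 452 FPKM in DC, 273 and 439 in DCSch, 246 and 318 in Pc, 227 and 235 in Epi, 50.8 and 35.1 in Mc, 720.4 and 1009 in Sch, 84.0 and 139 in Neg and 432 and 602 in Fb. The Sch libraries were both above all others. Fb, DC and DCSch each overlapped the next in the order, while Pc and Epi did not overlap. Mc was the lowest, with a mean 20.1 times below that of Sch.

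Sparc (chromosome 11, 55394501 to 55420080, minus strand) was the most abundant of the 10 in each fraction and the most evenly spread, with a ratio of 6.18 between its highest and lowest fraction means. It measured 566 and 471 FPKM in DC, 1048 and 944 in DCSch, 431 and 489 in Pc, 364 and 349 in Epi, 414 and 417 in Mc, 2202 and 2026 in Sch, 841 and 735 in Neg and 2298 and 2106 in Fb. Fb and Sch overlapped at the top, and DC and Pc overlapped in the lower part of the order.

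The 2 Sparc relatives had different patterns. Smoc1 (chromosome 12, 81026808 to 81186414, plus strand) measured 166 and 110.3 FPKM in DC, 35.7 and 36.8 in DCSch, 0.371 and 0.251 in Pc, 0.282 and 0.276 in Epi, 0.743 and 0.334 in Mc, 1.97 and 3.27 in Sch, 0.796 and 0.384 in Neg and 3.83 and 3.46 in Fb. Its DC mean was 3.81 times that of DCSch, and the DCSch mean was 9.94 times that of Fb, the next in the order. Smoc2 (chromosome 17, 14279506 to 14404790, plus strand) measured 28.7 and 24.03 FPKM in DC, 10.2 and 10.5 in DCSch, 58.1 and 60.9 in Pc, 38.1 and 28.5 in Epi, 8.51 and 4.18 in Mc, 3.28 and 1.34 in Sch, 3.59 and 5.96 in Neg and 51.4 and 51.8 in Fb. It was thus highest in Pc, where Smoc1 was near its lowest, and was the member with the highest levels relative to its maximum in the epithelial fractions. Across the 8 fraction means on the log2 scale Smoc2 had the lowest correlation of all pairs of members, with Sparc (Pearson's r = -0.27, a description over 8 points that share libraries). The Smoc2 locus of the table is shared by a second row, the noncoding gene 4930474M22Rik, at 0 to 6.43 FPKM, and that of Smoc1 by a microRNA row listed at 0 throughout.

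Thbs1 and Thbs2, the trimeric thrombospondins, were both fibroblast RNAs. Thbs1 (chromosome 2, 118111922 to 118127133, plus strand) measured 10.3 and 9.12 FPKM in DC, 19.9 and 14.9 in DCSch, 2.77 and 2.38 in Pc, 2.46 and 2.66 in Epi, 4.32 and 3.64 in Mc, 3.16 and 2.50 in Sch, 6.57 and 8.36 in Neg and 81.9 and 66.9 in Fb. Thbs2 (chromosome 17, 14665500 to 14694262, minus strand) measured 1.26 and 2.52 FPKM in DC, 4.71 and 3.97 in DCSch, 3.49 and 3.49 in Pc, 3.20 and 3.11 in Epi, 3.31 and 2.95 in Mc, 5.52 and 5.31 in Sch, 6.79 and 7.70 in Neg and 76.3 and 85.0 in Fb. Fb was 4.27 times the next fraction, DCSch, for Thbs1 and 11.1 times the next, Neg, for Thbs2. The 2 genes ranked DC differently, as the third of 8 for Thbs1 and the lowest for Thbs2. Thbs2 lies 260709 bases from Smoc2 on chromosome 17 with no protein-coding gene of GENCODE M21 between them, and the 2 neighbours, both high in Fb, differed in Pc and Epi.

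The pentameric pair was low throughout. Thbs3 (chromosome 3, 89215187 to 89226837, plus strand) measured 9.53 and 5.07 FPKM in DC, 3.10 and 1.36 in DCSch and 7.20 and 2.69 in Fb, with 1.34 or less in each library of the other 5 fractions. The 2 libraries of DC and of Fb overlapped, and replicate 1 was the higher in both. Exons of Mtx1 on the opposite strand overlap those of Thbs3 by up to 179 bases, and Mtx1 was listed at 5.98 to 28.7 FPKM. Whether counting used strand is not stated, and the low Thbs3 values are uncertain to that extent. Thbs4 (chromosome 13, 92751586 to 92794818, minus strand), known from tendon and muscle, measured 6.06 and 4.76 FPKM in Neg and 5.03 and 5.47 in Fb, against 0.890 or less in each library of the other 6 fractions. It was listed at 0 in Pc replicate 2.

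**Figure D2:**
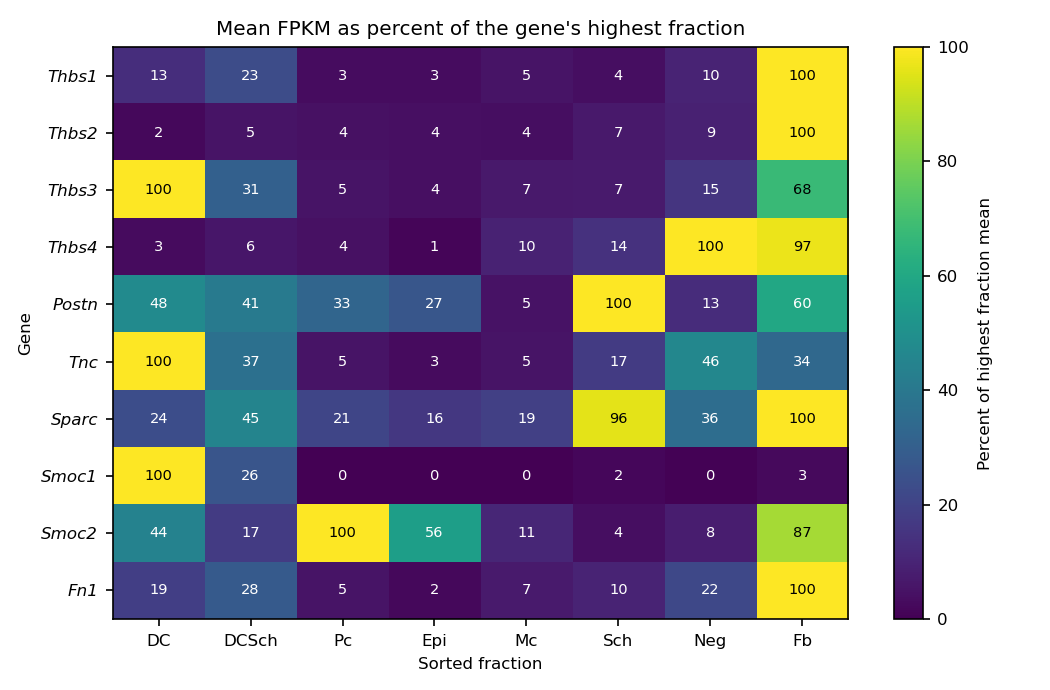
Mean FPKM of each gene in each fraction as a percent of the gene's highest fraction (colour and printed number). Sparc and Postn keep sizeable levels in many fractions, Smoc1 falls to 2.64% of its DC mean in Fb, and Smoc2 is the gene whose highest fraction is Pc.

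The members did not follow a single pattern. Of the 45 pairs of members, 39 had a correlation above 0 across the 8 fraction means on the log2 scale, with a median r of 0.40 and a range from -0.27 to 0.93. The highest was between Thbs1 and Fn1 (r = 0.93), then Thbs3 and Tnc (r = 0.84) and Thbs3 and Smoc1 (r = 0.81). Among 9045 other genes that reached 10 FPKM in a fraction, those close in pattern to Smoc1 included Trim9 (r = 0.997) and Glis1 (r = 0.996), and the closest to Thbs1 were Scube2 (r = 0.99), Zic1 (r = 0.99) and Kcne4 (r = 0.99). For Fn1 they were Armcx3, Bgn and Maged1 (r = 0.98 each), and for Sparc they were Rarres2, Kank4 and Mios (r = 0.97, 0.97 and 0.96). Postn had the loosest partners, Tdrd3, Ash1l and Senp6 (r = 0.96, 0.95 and 0.94). With 8 points and so many candidates, values this high are a description of these libraries only.

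Differences between fractions were tested with limma on log2(FPKM + 1) over all 14171 genes with at least 1 FPKM in at least 2 libraries. Calls needed a Benjamini-Hochberg adjusted p below 0.05 and a log2 difference of 1 or more in either direction. All 10 members passed the filter on low values. Thbs3, Thbs4 and Smoc1 were under 1 FPKM in every library of several fractions, and passed only through the fractions where they are higher. Adding 1 before the log shrinks the differences of genes at low FPKM.

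In the dermis, the condensate had less RNA of Thbs1, Thbs2, Thbs4, Sparc and Fn1 than the fibroblasts around it, and more of Smoc1 and Tnc. In DC against Fb, 2 of the 10 were higher and 5 lower, and the median log2 difference of the 10 was -1.52. Of all genes tested 15.3% were called, 6.13% higher and 9.20% lower, with a median difference near 0. Smoc1 averaged 138 ± 39.6 FPKM in DC and 3.65 ± 0.265 in Fb, a log2 difference of 4.88 (SE 0.26, limma adjusted p = 3.85e-07). Tnc averaged 83.7 ± 4.34 in DC and 28.3 ± 2.98 in Fb, a log2 difference of 1.53 (SE 0.21, limma adjusted p = 0.000228). Their libraries did not overlap.

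Thbs2 showed the largest fall, to 1.89 ± 0.891 FPKM in DC against 80.6 ± 6.14 in Fb, a log2 difference of -4.86 (SE 0.22, limma adjusted p = 1.81e-07). Thbs1 averaged 9.71 ± 0.826 in DC and 74.4 ± 10.6 in Fb, a log2 difference of -2.81. Fn1 averaged 77.5 ± 2.71 in DC and 416 ± 35.9 in Fb, a log2 difference of -2.41. Sparc averaged 519 ± 67.0 in DC and 2202 ± 136 in Fb, a log2 difference of -2.09. Thbs4 averaged 0.167 ± 0.0873 in DC and 5.25 ± 0.313 in Fb, a log2 difference of -2.42. The adjusted p of these 4 lay between 2.57e-06 (Sparc) and 1.27e-05 (Fn1) by limma. Smoc2, at 26.4 ± 3.30 FPKM in DC and 51.6 ± 0.274 in Fb, was not called (log2 difference -0.95, limma adjusted p = 0.0718), nor were Postn (-0.30) and Thbs3 (0.54).

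The 7 calls between DC and Fb held in all 9 alternative fits. Beside them, fibroblast markers summed to 1781 to 2257 FPKM in DC and 6537 to 8132 in Fb, and immediate early genes, which cells switch on within minutes of a stimulus, to 74.8 to 172 in DC and 165 to 391 in Fb. Among the 9 immediate early genes, DC was called lower for 4 and higher for 0. Their part in these differences was not tested.

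**Figure D3:**
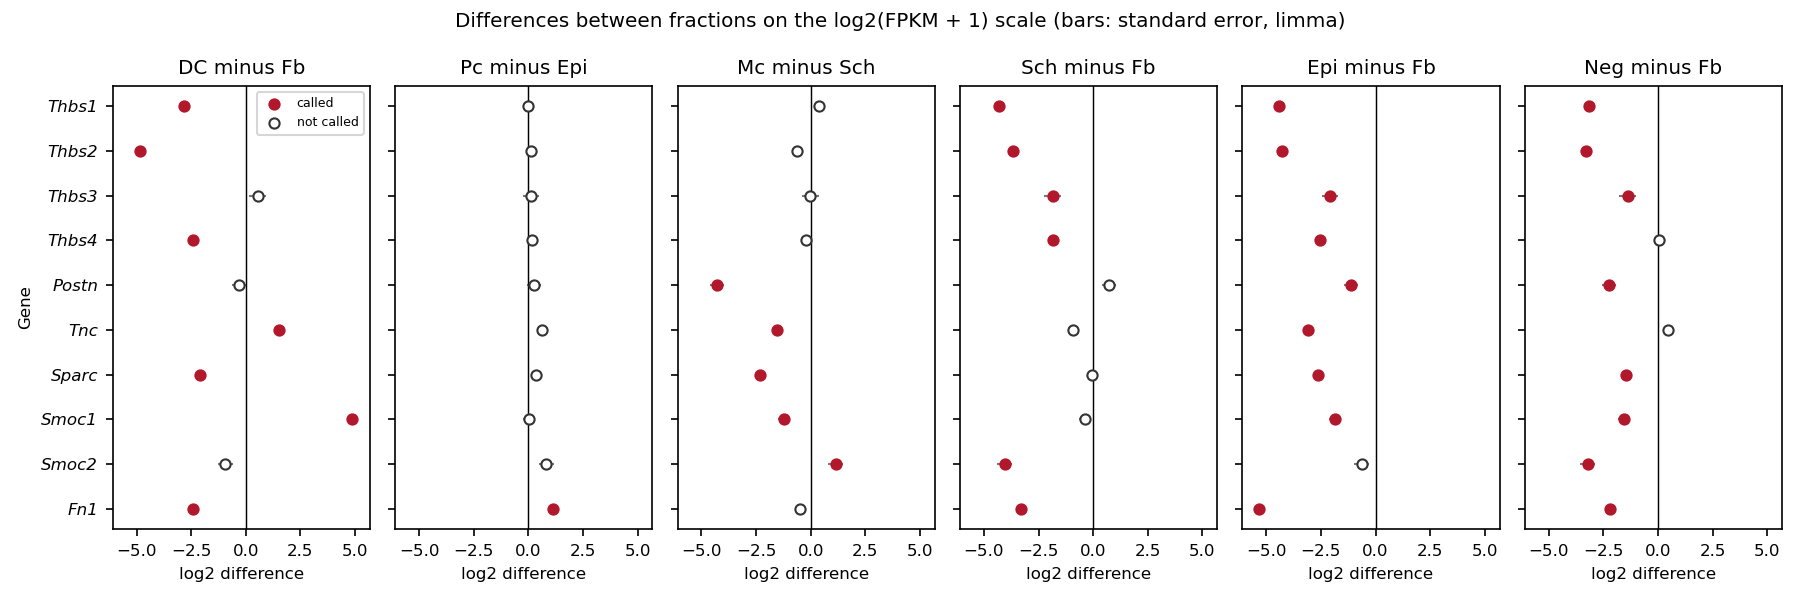
Log2 differences of the 10 genes in 6 comparisons, with standard errors from limma (bars shorter than a point are hidden); filled points passed the threshold and open points did not. In DC against Fb, Smoc1 (4.88) and Tnc (1.53) lie to the right and 5 genes to the left, while in Epi against Fb 9 of 10 lie to the left.

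Within the epithelium the log2 differences of these genes were smaller than in the dermis. In Pc against Epi, 1 of the 10 was called, Fn1, higher in Pc, and the median log2 difference of the 10 was 0.23. Of all genes tested 1.52% were called, 0.155% higher and 1.37% lower, with a median difference of 0.003. Fn1 averaged 21.9 ± 5.96 FPKM in Pc and 9.32 ± 0.613 in Epi, a log2 difference of 1.12 (SE 0.22, limma adjusted p = 0.0243). Smoc2 averaged 59.5 ± 1.95 in Pc and 33.3 ± 6.77 in Epi, with a log2 difference of 0.83 (limma adjusted p = 0.446), and Tnc 4.43 ± 0.612 in Pc and 2.48 ± 0.360 in Epi, with a log2 difference of 0.64 (limma adjusted p = 0.243). Libraries of Pc lay above those of Epi for both, without overlap, as they did for Thbs2, Thbs3, Postn, Sparc and Fn1. The share of all genes without overlap was not counted, so the members cannot be set against it. Of these genes only Fn1 was called, and Thbs3 was under 1 FPKM in every Pc and Epi library. The call of Fn1 was lost without Pc replicate 1 (log2 difference 0.86), without Epi replicate 1 (1.19) and without Epi replicate 2 (1.06), and with a pseudocount of 0.1 or only the compared fractions, where no member was called. Melanocyte markers summed to 27.04 to 30.4 FPKM in Pc and 161 to 229 in Epi, with 4 of the 6 called lower in Pc and none at 0, and their part in this comparison was not tested. A replicate term, since the replicate numbers pair the libraries, raised the count of all called genes to 368, against 216 without it, and Fn1 remained the only member called.

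Follicle and non-follicle fractions can be compared in both tissue layers at once, by setting DC minus Fb against Pc minus Epi. The 2 differences differed for 7 of the 10 genes, 1 higher and 6 lower, against 14.1% of all genes called, 5.89% higher and 8.19% lower. Fn1 was called in both layers with opposite signs, lower in DC than in Fb and higher in Pc than in Epi, and the difference of differences was -3.53 (SE 0.31, limma adjusted p = 2.73e-05). The Fn1 call in Pc against Epi held in only 4 of 9 alternative fits, that of the difference of differences in all 13. The difference of differences was 4.84 for Smoc1, -4.97 for Thbs2, -2.82 for Thbs1, -2.60 for Thbs4, -2.45 for Sparc and -1.78 for Smoc2. Smoc1 and Thbs4 were under 1 FPKM in every Pc and Epi library. With 1 added before the log, their epidermal differences were small (0.03 and 0.18). Their values thus largely repeat DC against Fb (4.88 and -2.42). The same holds for Thbs1 and Thbs2, with epidermal differences of 0.0052 and 0.11 beside -2.81 and -4.86 in DC against Fb. Sparc, at 0.37 in the epidermal layer and -2.09 in the dermal one, was called only in the latter. Tnc, with log2 differences of 1.53 in the dermal layer and 0.64 in the epidermal one, the last not called, was not called for the difference of differences (0.89, SE 0.30, limma adjusted p = 0.0670), and Postn and Thbs3 were not called. Smoc2 lost its call in 7 of 13 alternative fits, among them those without Fb replicate 1 (-1.78), Fb replicate 2 (-1.77), DC replicate 2 (-1.66), Pc replicate 1 (-1.81), Pc replicate 2 (-1.75) or Epi replicate 2 (-1.58).

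Epidermis had less of nearly all of these RNAs than fibroblasts. In Epi against Fb, 9 of the 10 were lower and none higher, with a median log2 difference of -2.58, against 24.5% of all genes called, 10.5% higher and 14.0% lower. Fn1 showed the largest difference, 9.32 ± 0.613 FPKM in Epi and 416 ± 35.9 in Fb (log2 difference -5.34, SE 0.22, limma adjusted p = 4.15e-08). Thbs1 (-4.40), Thbs2 (-4.29), Tnc (-3.07) and Sparc (-2.62) followed, and Thbs4, Thbs3 and Smoc1 were lower too (-2.54, -2.09 and -1.86). Postn, at 231 ± 5.55 FPKM in Epi and 517 ± 121 in Fb, was lower by less (-1.14, SE 0.32, limma adjusted p = 0.0151). Smoc2 was the exception, at 33.3 ± 6.77 in Epi and 51.6 ± 0.274 in Fb (-0.63, limma adjusted p = 0.188). Postn lost its call without Fb replicate 2 (-0.90), Epi replicate 1 (-1.11) or Epi replicate 2 (-1.16). With all libraries rescaled to the same total, the median difference of all genes was -0.20 here and in Neg against Fb, 0.12 in Sch against Fb and -0.15 in Mc against Sch, where it was near 0 as deposited.

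In the Schwann cell fraction Sparc and Postn were abundant, as they were in fibroblasts, while the thrombospondins and fibronectin were lower than in fibroblasts. In Sch against Fb, 6 of the 10 were lower and none higher, with a median log2 difference of -1.84, against 15.4% of all genes called, 6.72% higher and 8.68% lower. Thbs1 averaged 2.83 ± 0.468 FPKM in Sch and 74.4 ± 10.6 in Fb (log2 difference -4.30, SE 0.22, limma adjusted p = 1.83e-07). Smoc2 averaged 2.31 ± 1.38 in Sch and 51.6 ± 0.274 in Fb (-4.05, SE 0.34, limma adjusted p = 4.01e-06). Thbs2 (-3.67), Fn1 (-3.28), Thbs3 (-1.86) and Thbs4 (-1.83) were lower too. Sparc averaged 2114 ± 124 in Sch and 2202 ± 136 in Fb, a log2 difference of -0.06 (SE 0.15, limma adjusted p = 0.896) that changed sign in some alternative fits, and Postn averaged 865 ± 204 in Sch and 517 ± 121 in Fb (0.74, SE 0.32, limma adjusted p = 0.141). Tnc, at 14.6 ± 1.68 in Sch and 28.3 ± 2.98 in Fb, missed the size threshold (-0.91, limma adjusted p = 0.00758) and passed it without Fb replicate 2 (-1.02) or Sch replicate 1 (-1.02). Immediate early genes summed to 74.5 to 98.8 FPKM in Sch and 165 to 391 in Fb, with 5 of the 9 called lower in Sch, and fibroblast markers to 473 to 611 in Sch and 6537 to 8132 in Fb, with 7 of the 7 lower. Their part in these differences was not tested.

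Melanocytes and Schwann cells both come from the neural crest, yet the melanocyte fraction had much less RNA of Postn and Sparc. In Mc against Sch, 1 of the 10 was higher and 4 lower, with a median log2 difference of -0.57, against 11.8% of all genes called, 4.53% higher and 7.31% lower. Postn averaged 42.9 ± 11.1 FPKM in Mc and 865 ± 204 in Sch (log2 difference -4.30, SE 0.32, limma adjusted p = 1.73e-06). Sparc averaged 416 ± 2.57 in Mc and 2114 ± 124 in Sch (-2.34, SE 0.15, limma adjusted p = 7.40e-07), and Tnc 4.39 ± 0.686 in Mc and 14.6 ± 1.68 in Sch (-1.53, SE 0.21, limma adjusted p = 0.000253). Smoc1 averaged 0.539 ± 0.289 in Mc and 2.62 ± 0.922 in Sch (-1.22, limma adjusted p = 0.00701). Smoc2 averaged 6.35 ± 3.06 in Mc and 2.31 ± 1.38 in Sch (1.15, limma adjusted p = 0.0406). Fn1, at 29.8 ± 8.68 in Mc and 41.8 ± 1.93 in Sch, was not called (-0.50, limma adjusted p = 0.179). Thbs1 (0.38), Thbs2 (-0.64), Thbs3 (-0.01) and Thbs4 (-0.21) were not called either.

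The sum of the keratinocyte markers differed between these libraries too. They summed to 569 and 409 FPKM in Mc replicates 1 and 2, and to 182 and 29.6 in Sch replicates 1 and 2. Of the 6 markers, 1 was called higher in Mc and 5 were not called. Cdh1 alone held 224 and 236 FPKM of the Mc sums, and 11.3 and 2.29 in Sch. In both fractions replicate 1 also had the higher Smoc2. Over all fractions the marker sum was higher in replicate 1 in 8 of 8, and Smoc2 in 4 of 8. Fb held 51.6 ± 0.274 FPKM of Smoc2 with marker sums of 40.5 to 65.2, a level that does not bear on Mc or Sch. None of the 6 markers was at 0 in either fraction, and their part in the Smoc2 difference was not tested. Smoc2 lost its call without Sch replicate 2 (0.71) or Mc replicate 1 (0.71), and without the filter on low values, with libraries rescaled or with only the compared fractions, 5 of 9 alternative fits in all. Smoc1 lost it without Sch replicate 2 (-0.96) or Mc replicate 2 (-1.03).

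In the negative fraction, a mixture by its markers, most members were lower than in fibroblasts, but Tnc and Thbs4 were not. In Neg against Fb, 8 of the 10 were lower and none higher, with a median log2 difference of -1.87, against 15.5% of all genes called, 7.77% higher and 7.71% lower. Thbs2 (-3.31), Smoc2 (-3.22), Thbs1 (-3.16), Postn (-2.23), Fn1 (-2.19), Smoc1 (-1.56), Sparc (-1.48) and Thbs3 (-1.39) made up the 8, with limma adjusted p from 1.13e-06 (Thbs2) to 0.0198 (Thbs3). Tnc averaged 38.8 ± 3.63 FPKM in Neg and 28.3 ± 2.98 in Fb (0.44, limma adjusted p = 0.181), and Thbs4 averaged 5.41 ± 0.919 in Neg and 5.25 ± 0.313 in Fb (0.03, SE 0.20, limma adjusted p = 0.961). Skeletal muscle markers summed to 2295 to 2519 FPKM in Neg and 31.3 to 54.6 in Fb, and tendon markers to 2.40 to 4.83 in Neg and 6.20 to 9.80 in Fb, and their part in the Thbs4 level was not tested. Thbs3 lost its call without Fb replicate 1 (-0.81), Neg replicate 1 (-1.54) or Neg replicate 2 (-1.23), and with only the compared fractions. These comparisons with Fb share the same 2 Fb libraries.

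The mixed DCSch fraction lay between DC and Sch for some members and outside them for others. Smoc1 averaged 36.2 ± 0.826 FPKM in DCSch, 138 ± 39.6 in DC and 2.62 ± 0.922 in Sch, and Tnc 31.0 ± 6.67 in DCSch, 83.7 ± 4.34 in DC and 14.6 ± 1.68 in Sch. On a scale from 0 at Sch to 1 at DC, DCSch stood at 0.248 for Smoc1, 0.237 for Tnc, 0.253 for Thbs3 and 0.335 for Smoc2, and at 0.701 for Sparc. Fn1, at 118 ± 5.07 in DCSch, 77.5 ± 2.71 in DC and 41.8 ± 1.93 in Sch, was above both, and so was Thbs1, at 17.4 ± 3.59 in DCSch, 9.71 ± 0.826 in DC and 2.83 ± 0.468 in Sch. In neither gene did the libraries overlap. Fibroblast markers summed to 2167 to 2509 FPKM in DCSch, 1781 to 2257 in DC and 473 to 611 in Sch, with none of the 7 at 0. Neither the position of DCSch nor the part of these markers in it was tested.

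Other matricellular and related matrix genes were taken from a list of 24, of which 17 passed the filter. In DC against Fb, 5 were higher and 6 lower, against 15.3% of all genes called, 6.13% higher and 9.20% lower. The higher ones were the proteoglycan Spock1 (11.4 ± 0.502 FPKM in DC and 0.0610 ± 0.00702 in Fb), the F-spondin gene Spon1 (61.6 ± 5.31 in DC and 16.0 ± 0.796 in Fb), the CCN family gene Wisp1 (138 ± 23.9 in DC and 33.7 ± 9.80 in Fb), Fbln2 (179 ± 85.8 in DC and 40.7 ± 18.8 in Fb) and Spon2 (14.4 ± 4.32 in DC and 2.34 ± 1.65 in Fb). Log2 differences ran from 1.88 for Spon1 to 3.55 for Spock1. The lower ones were led by Tgfbi, a relative of periostin (0.599 ± 0.275 in DC and 23.0 ± 1.48 in Fb, log2 difference -3.92), and the CCN family gene Cyr61 (13.7 ± 4.52 in DC and 187 ± 70.6 in Fb, -3.66), followed by Spock3 (-2.44) and Fbln5 (-1.67). Of these 11 calls, 10 held whichever library was left out, and Nov (-1.04) did not, with -0.75 without Fb replicate 2 and -0.91 without DC replicate 1.

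None of the 17 was called in Pc against Epi, where 1.52% of all genes were. The all-gene shares called were 24.5% in Epi against Fb, 15.4% in Sch against Fb, 11.8% in Mc against Sch and 15.5% in Neg against Fb. Epi had 1 gene higher than Fb, Ctgf (5.47 ± 0.896 FPKM in Epi and 1.46 ± 0.0387 in Fb, log2 difference 1.39), and 12 lower, led by Cyr61 (-5.04), Wisp1 (-4.20), Fstl1 (-4.18) and Nov (-3.68). Sch had 1 higher than Fb, Spon1 (75.4 ± 1.61 in Sch and 16.0 ± 0.796 in Fb, 2.17), and 8 lower, led by Cyr61 (-3.40), Fstl1 (-2.72), Tgfbi (-2.71) and Nov (-2.70). Mc had none higher than Sch and 6 lower, led by Spon1 (2.49 ± 0.197 in Mc and 75.4 ± 1.61 in Sch, -4.45), Ctgf (-1.63), Fbln5 (-1.53) and Sparcl1 (-1.36, and -0.92 without Mc replicate 1, where it was not called). Neg had 1 higher than Fb, Ctgf (6.73 ± 0.09998 in Neg and 1.46 ± 0.0387 in Fb, 1.65), and 10 lower, led by Cyr61 (-2.75), Fbln2 (-2.59), Fbln1 (-2.44) and Fstl1 (-2.38).

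**Figure D4:**
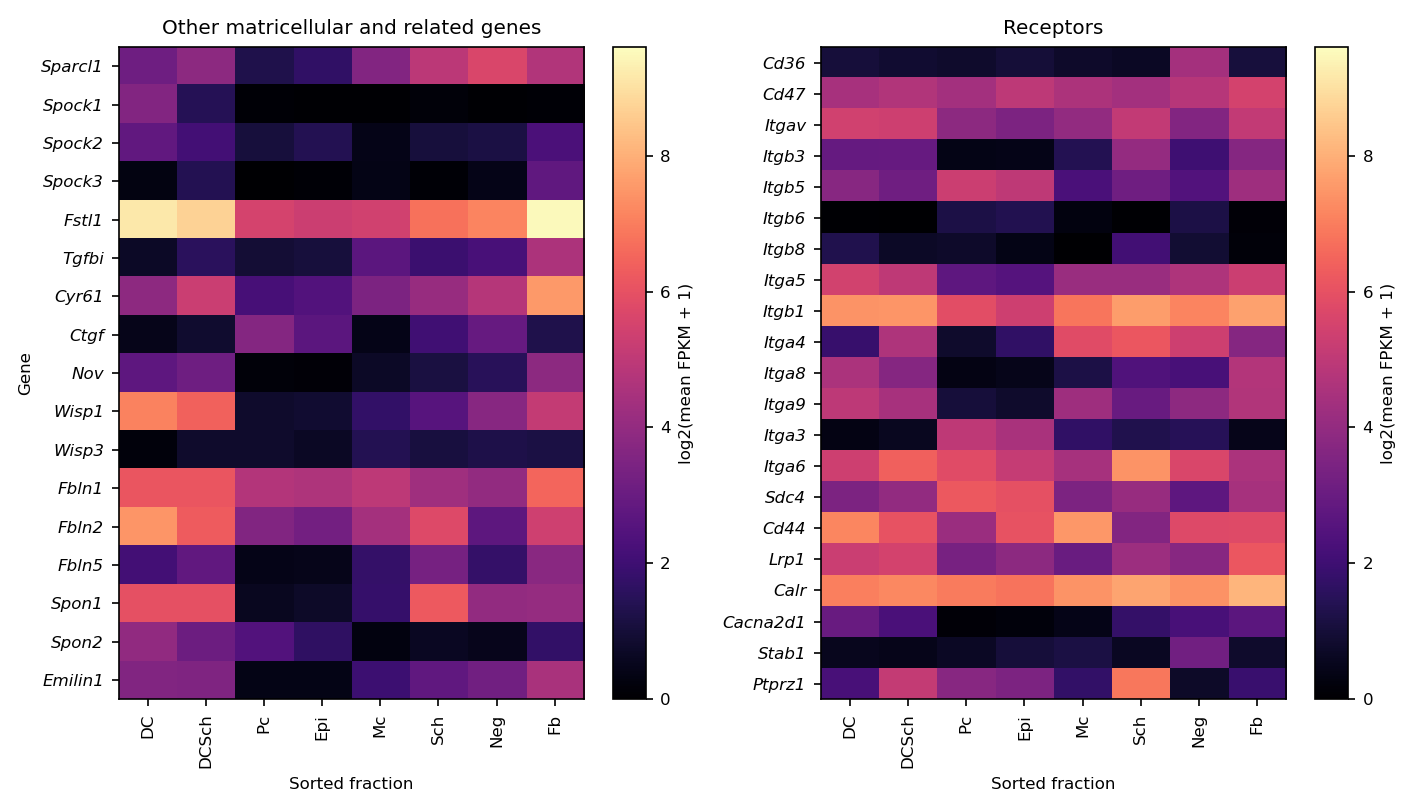
Log2(mean FPKM + 1) of the 17 other matricellular and related matrix genes and the 21 receptor genes that passed the filter, by fraction (colour). Spock1, Wisp1 and Fbln2 are brightest in DC, Cyr61 and Tgfbi in Fb, Itga3 and Sdc4 in Pc and Epi, Itga6 and Ptprz1 in Sch, and Cd36 and Stab1 in Neg.

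Receptors for these proteins were measured with a list of 21 genes, all of which passed the filter. The all-gene shares called were 15.3% in DC against Fb and 1.52% in Pc against Epi. Itgb1, the beta chain shared by many matrix integrins, was present in every fraction, from 39.8 ± 7.56 FPKM in Epi to 207 ± 71.7 in Fb. In DC against Fb, 2 were higher, Cd44 (143 ± 18.2 in DC and 53.9 ± 18.0 in Fb, log2 difference 1.43) and Itgb8 (1.17), and 3 lower, Itga4 (-1.95), Calr (-1.06) and the thrombospondin receptor Cd47 (21.2 ± 3.38 in DC and 44.0 ± 11.6 in Fb, -1.002). None of these 5 held in every fit with a library left out: Cd44 lost its call without Fb replicate 1 (1.09) or DC replicate 2 (1.30), Itgb8 (0.96) and Calr (-0.92) without DC replicate 2, and Itga4 (-1.40 and -1.19) and Cd47 (-0.74 and -0.85) without Fb replicate 2 or DC replicate 1. The fibronectin receptor chain Itga5 measured 43.0 ± 16.9 in DC and 38.6 ± 8.18 in Fb, and was not called. In Pc against Epi, 1 of 21 was called, Cd44, lower in Pc (17.1 ± 2.22 in Pc and 65.5 ± 18.5 in Epi, -1.85), and it lost its call in each of the 4 fits with a library left out, with differences of -1.56 to -2.14. Cd44 stood at 183 ± 54.7 FPKM in Mc, and the part of the melanocyte markers, lower in Pc than in Epi, was not tested.

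The all-gene shares called were 24.5% in Epi against Fb and 15.4% in Sch against Fb. Epi had 4 receptor genes higher than Fb and 10 lower. The higher ones were the laminin receptor chain Itga3 (21.8 ± 6.15 FPKM in Epi and 0.383 ± 0.200 in Fb, log2 difference 4.03), Ptprz1, a receptor of tenascins (1.64), the syndecan Sdc4 (1.54) and Itgb6 (1.24). The lower ones were led by Itga8 (-4.25), the tenascin receptor chain Itga9 (0.742 ± 0.317 in Epi and 25.4 ± 0.428 in Fb, -3.93), Itgb3 (-3.26) and Itga5 (-2.76). Ptprz1 lost its call without Fb replicate 1 (1.31) or Epi replicate 2 (1.52). Sch had 4 higher than Fb, Ptprz1 (116 ± 26.6 in Sch and 2.69 ± 1.17 in Fb, 5.00), Itga6 (2.92), Itga4 (2.49) and Itgb8 (1.93), and 6 lower, led by Itga8 (-2.30), Cd44 (-2.15), Lrp1 (-1.85) and Itga9 (-1.73). Itga4 and Lrp1 lost their calls without Fb replicate 1 (1.95 and -1.18) or Sch replicate 2 (2.02 and -1.52).

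Mc had 2 receptor genes higher than Sch, Cd44 (183 ± 54.7 FPKM in Mc and 11.2 ± 2.63 in Sch, log2 difference 3.90) and Itga9 (1.27), and 6 lower, led by Ptprz1 (-5.12), Itga6 (-2.99), Itgb3 (-2.61) and Itgb8 (-2.04). The all-gene shares called were 11.8% in Mc against Sch and 15.5% in Neg against Fb. Neg had 4 higher than Fb. These were the thrombospondin receptor Cd36 (20.0 ± 6.20 in Neg and 1.10 ± 1.08 in Fb, 3.39), Stab1, a scavenger receptor for Sparc (8.15 ± 2.17 in Neg and 0.736 ± 0.0711 in Fb, 2.38), Itga6 (1.12) and Itgb6 (1.07). It had 6 lower, led by Itga8 (-2.50), Lrp1 (-2.34), Itgb5 (-1.75) and Itgb3 (-1.70). Endothelial markers summed to 259 to 351 FPKM in Neg and 7.41 to 16.98 in Fb and macrophage markers to 85.7 to 86.2 in Neg and 5.12 to 5.4003 in Fb, and their part in the receptor levels was not tested. Of the 4 higher in Neg, Itga6 (0.78) and Itgb6 (0.95) lost their calls without Fb replicate 1, Itgb6 also without Neg replicate 2 (0.91), and Itgb5 lost its call without Fb replicate 1 (-1.22) or Neg replicate 2 (-1.39).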

How the data were processed

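RNA was amplified to cDNA with a NuGEN kit before library preparation, per the labels' protocols. The authors deposited 1 table of FPKM values with a column for each of the 16 libraries. TopHat2 2.0.3, Bowtie2 and Cufflinks 2.1.1 and the mm10 build are named in the submitters' processing notes, with no role or setting, and a further scaling between libraries is neither stated nor excluded. Amplification and FPKM scaling mean that values are relative to the rest of their library. Loci are those of the table, written 1-based. Columns were matched to samples by title.

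Values were fitted as log2(FPKM + 1) with limma 3.58.1 in R 4.3.3, with 1 mean per fraction over all 16 libraries, trended and robust spread, and Benjamini-Hochberg adjustment over 14171 genes. The fit was tested on simulated data with noise drawn separately for each library. The simulation thus lacked the joint deviation of libraries with the same replicate number described below, and cannot speak to its effect. Named genes were all 10 members, up to 4 called genes per direction from each of 2 lists (24 and 21 genes), and pattern partners. The partners are the 3 genes closest in pattern to each of Smoc1, Thbs1, Fn1, Sparc and Postn. Those of the other members are not listed. Spon1 and Nov in DC against Fb, Itgb1, and Itga5 in DC against Fb were added after their values were seen. Members and lists were chosen with earlier results of these data known. Libraries with the same replicate number deviated from their fraction means together in all 28 pairs of fractions (0.148 to 0.656, median 0.491), so the replicate numbers were read as pairing the libraries; the fit without a replicate term is the main one. Alternatives were a pseudocount of 0.1, no filter, libraries rescaled to the same total, a replicate term, only the compared fractions, and each library left out. A gene that the rule on pattern names is not reported here. Promoters of Fn1, Thbs1, Smoc1 and Smoc2 were not analysed here.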

Additional observations from a re-analysis of the deposited data

Results flagged for a closer look

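For 7 genes the difference between follicle and non-follicle fractions differed between the layers, by limma's test of the difference itself, DC minus Fb less Pc minus Epi on the log2 scale. The values were -2.82 for Thbs1 (limma adjusted p = 0.000108), -4.97 for Thbs2 (5.25e-06), -2.60 for Thbs4 (0.000115), -2.45 for Sparc (2.73e-05), 4.84 for Smoc1 (1.15e-05), -1.78 for Smoc2 (0.0265) and -3.53 for Fn1 (2.73e-05). Fn1 and Sparc had log2 differences of -2.41 and -2.09 in the dermal layer and 1.12 and 0.37 in the epidermal one, of which the last was not called. The epidermal call of Fn1 held in only 4 of 9 alternative fits. Thbs1, Thbs2, Thbs4 and Smoc1 were low in both Pc and Epi, with no library above 3.49 FPKM. Their values largely repeat DC against Fb.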

How the results depend on the processing

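The counts of members called stayed within 1.5 times the main value except in 2 comparisons. In Pc against Epi the 1 call became 0 with a pseudocount of 0.1 and with only the libraries of the compared fractions, and 0 to 1 with a library left out. In Mc against Sch the 5 became 3 to 5 with a library left out. All genes called in Pc against Epi numbered 31 with a pseudocount of 0.1, 368 with a replicate block and 43 to 184 with a library left out, against 216, and in DC against Fb 1231 with only the compared fractions, against 2172. The replicate block changed no call of a member. Of 665 member values under the alternatives, 623 kept direction and side of the threshold, 26 lost a call, 2 gained one and 14 changed sign, none of them called. The changes of sign were, with rescaled libraries, Sparc in Sch against Fb (0.0754) and Thbs4 in Neg against Fb (-0.20). With a library left out they were Sparc in Sch against Fb (-0.12 to 0.00415), Thbs4 in Neg against Fb (-0.12 to 0.18), Thbs3 in DC against Fb (-0.0368 to 1.11), in Mc against Sch (-0.0567 to 0.0279) and in the layer comparison (-0.15 to 1.0003), and Thbs1 (-0.0721 to 0.0825), Thbs4 (-0.10 to 0.45) and Smoc1 (-0.0320 to 0.10) in Pc against Epi. The cause was not tested. Of 111 calls among the list genes, 80 held under every alternative run. With only the compared fractions some low members did not pass the filter and gave no value. The unknown depth limits members under about 1 FPKM.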

Other observations

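Periostin differed between the replicate numbers the other way from several members: replicate 1 was above replicate 2 in 1 of 8 fractions for Postn, against 7 of 8 for each of Fn1, Tnc and Thbs3. The summed level of 9 immediate early genes was higher in replicate 1 in 8 of 8 fractions, at 172 and 74.8 FPKM in DC and 390.6 and 165 in Fb. Thbs1, Sparc and Smoc1 were each higher in replicate 1 in 6 of 8, Thbs2 and Thbs4 in 5 and Smoc2 in 4. The share of all genes was not counted, and no test was made of these counts.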
